A study of Mus musculus with 3 samples.

Results

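The 9 genes described here handle iron inside the cells of mouse BM. They are Tfrc, Trf, Slc11a1, Slc11a2, Steap3, Fth1, Ftl1, Aco1 and Ireb2, found by symbol among the 17250 gene names of the deposited tables. RNA was sequenced from BM of C57BL/6 mice aged 6 to 8 weeks, male according to the methods. The mice of the 3-day and 5-day libraries had received subcutaneous recombinant LECT2, a secreted liver protein made for this purpose in CHO cells. The dose was 300 μg/kg, given daily, and BM was collected after 0, 3 or 5 days of LECT2. Injected mice were killed at 4 h after their last injection. Femur, tibia, pelvis and humerus were flushed, so each library is a mixture of cell types. The methods name flushed BM cells, whereas a legend in the paper's supplement names BM mononuclear cells for these data. Each time point is 1 library, the number of mice behind it is not given in the sources used here, and no label says whether the mice at 0 days had a sham injection. No difference between time points therefore has a replicate check, and no p-value is given.

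Iron travels in plasma on transferrin, which the transferrin receptor carries into endosomes. There a STEAP reductase converts the ferric iron and a divalent metal transporter moves it to the cytosol, where ferritin stores what is not used. Erythroblasts take most of the iron of the marrow for heme, and macrophages return iron from old red cells. Both iron regulatory proteins, IRP1 (Aco1) and IRP2 (Ireb2), bind hairpins called iron-responsive elements (IREs) when iron is scarce. Such a hairpin in a 5′UTR blocks translation, and those in the Tfrc 3′UTR slow the decay of the mRNA. Much of this control therefore acts on translation, which read counts do not measure.

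The IREs are shown because they connect the storage, uptake and sensing genes of the list. They were searched in the sense strand of GENCODE M21 transcripts (GRCm38) as CNNNNNCAGTGN, in which the NNNNN before the loop pairs with the 5 bases after it, G-U pairs allowed. The capitals mark the 6 bases of the loop, and each line gives 30 bases in mRNA orientation, written with T for U.
Tfrc 3′UTR, hairpin 1, chr16:32631218-32631247, + strand: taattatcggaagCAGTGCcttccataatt
Tfrc 3′UTR, hairpin 2, chr16:32631597-32631626, + strand: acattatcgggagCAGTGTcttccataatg
Tfrc 3′UTR, hairpin 3, chr16:32631662-32631691, + strand: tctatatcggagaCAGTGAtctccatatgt
Tfrc 3′UTR, hairpin 4, chr16:32631709-32631738, + strand: taattatcgggaaCAGTGTttcccataatt
Fth1 5′UTR, chr19:9982731-9982760, + strand: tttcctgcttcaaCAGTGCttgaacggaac
Ftl1 5′UTR, chr7:45459779-45459808, − strand: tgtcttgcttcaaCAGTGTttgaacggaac
Slc40a1 5′UTR, chr1:45925465-45925494, − strand: ccaacttcagctaCAGTGTtagctaagttt
Alas2 5′UTR, across an exon junction within chrX:150547457-150552149, + strand: tttggttcgtcctCAGTGCagggcaacagg

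All 4 matches of Tfrc lay in its 3′UTR of 2458 bases, and the ferritin genes each held 1 match in the 5′UTR. The genes outside the list of 9 are ferroportin (Slc40a1) and the erythroid enzyme that opens heme synthesis (Alas2). By the same search, 21 of 20647 5′UTRs (0.102%) and 118 of 20840 3′UTRs (0.566%) held a match. No match was found in the UTRs of the transcripts used for Slc11a2, Trf, Slc11a1, Ireb2, Aco1, Steap3 or Epas1, which says only that these letters are not in those windows. Epas1 was itself listed here among other transcripts with an IRE, so a gene without a match to this strict pattern may still carry one. A match is a description of sequence and was not tested as a binding site.

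The libraries held 15146983 to 15523952 reads on genes, so depth was close to equal, and RPKM, which divides reads by gene length and by library size, compares genes per length. The 100 most abundant genes held 24.8% of the reads at 0 days and 13.5% at 5 days. The 11 late neutrophil markers with a row summed to 149807, 115887 and 41359 RPKM at 0, 3 and 5 days. Over all genes tested, those with 1 RPKM or more in either library, the median log2 ratio was 0.31 at 5 days against 0 days. It was 0.01 with TMM factors, which set the scale of each library by the bulk of its genes. Ratios also depended on gene length, from a median of -0.43 in the shortest length decile of genes to 0.85 in the longest at 5 days against 0 days, and ratios are also given with this trend removed by a smooth curve, which leaves the median of all genes in place. Each ratio below is the log2 ratio of RPKM + 0.1, which understates differences of low genes, and its interval, in brackets, is an exact 95% interval (Clopper-Pearson) for the quotient of both read counts. These intervals hold counting error alone, as PCR copies could not be told from separate molecules. In bulk RNA, fewer cells of a type and less RNA per cell cannot be told apart.

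Of the 9 genes, 8 were measured above the floor of 3 reads in every library, and their levels spanned from 4.61 RPKM (Steap3) to 1851 RPKM (Ftl1) at 0 days. Ftl1, Tfrc, Trf and Slc11a1 kept the first 4 places in that order in all 3 libraries. Below them, the intervals of Slc11a2 and Aco1 overlapped at 0 days, as did those of Aco1 and Slc11a2 and of Slc11a2 and Steap3 at 3 days. At 5 days the intervals of Slc11a1 and Ireb2 and those of Steap3 and Aco1 overlapped. Steap3, the lowest of the 8 at 0 and at 3 days, stood above Slc11a2 at 5 days.

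**Figure D1:**
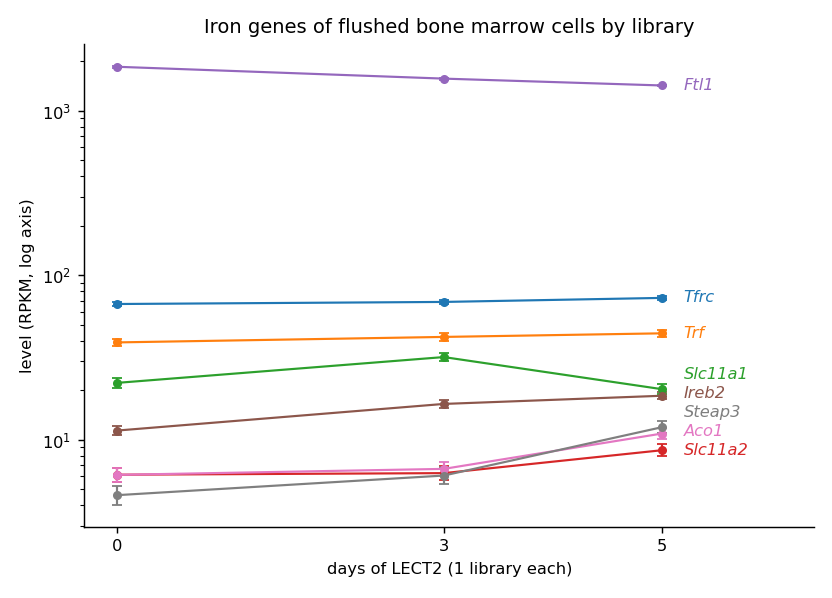
Level of 8 iron genes (RPKM, log axis) against days of LECT2, with 1 library per point and exact 95% Poisson intervals of the counts as error bars. Ftl1 goes from 1851 to 1425 RPKM, Tfrc and Trf are nearly flat, Slc11a1 is highest at 3 days, and Steap3 climbs from 4.61 to 11.9 RPKM. Fth1 is left out because its only row, a non-coding transcript, held 2, 5 and 0 reads.

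Against 0 days, none of the 8 genes was at least 2-fold higher or lower at 3 days, where 4.08% of the 11325 genes tested had passed 2-fold upwards and 2.41% downwards. At 5 days 1 of the 8, Steap3, was at least 2-fold higher than at 0 days, beside 15.5% of all genes, and none was at least 2-fold lower, beside 5.91%. Between 3 and 5 days none of the 8 passed 2-fold, with 1.95% of all genes higher and 3.45% lower. The median log2 ratio of the 8 genes was 0.11 at 3 days (all genes 0.09) and 0.34 at 5 days (all genes 0.31), both against 0 days. It was 0.12 at 5 days against 3 days (all genes 0.25). These counts and medians describe the 8 genes and mark out nothing particular to them as a group.

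Tfrc (chr16:32608920-32632794 in GRCm38, + strand) encodes the receptor that takes up iron-loaded transferrin and is most abundant on erythroblasts and dividing cells. Its level was 66.9, 68.9 and 72.9 RPKM at 0, 3 and 5 days, from 5113, 5136 and 5566 reads. All 3 libraries thus lay within a narrow range, and the log2 ratios against 0 days were 0.04 [-0.01, 0.10] (3 days) and 0.12 [0.07, 0.18] (5 days). The sign of the ratio at 5 days depended on the scale, since it was -0.19 with TMM factors and -0.22 with the length trend removed. Genes of its length class, decile 9, had a median of 0.66 at 5 days against 0 days. The 13 erythroid markers summed to 5777, 4572 and 1916 RPKM at 0, 3 and 5 days, but only the globin genes, 4 of the 13, were at least 2-fold lower at 5 days than at 0 days (5.91% of all genes). With TMM factors 5 markers were (9.96% of all genes), and without the length trend 3 (4.57%). The median log2 ratio of the list was -0.03, or -0.34 with TMM factors and 0.07 without the length trend. The 14 cell cycle genes summed to 964, 997 and 1607 RPKM, and 5 of them had passed 2-fold upwards by 5 days (15.5% of all genes), or 2 with TMM factors (7.24% of all genes). Their part in the level of Tfrc was not tested.

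Trf (chr9:103204001-103230444, − strand), transferrin itself, is known mainly as a liver product. Its level in BM was 39.1, 42.2 and 44.4 RPKM at 0, 3 and 5 days. The log2 ratios against 0 days were 0.11 [0.01, 0.22] (3 days) and 0.18 [0.08, 0.29] (5 days), and the latter was -0.13 with TMM factors. Hepatocyte markers were nearly absent beside these levels. Alb had 1 read at 0 days and none at 3 and 5 days, and the 4 of 11 hepatocyte markers with a row summed to 3.16 RPKM at most. Trf overlaps a gene model on its own strand, Gm20425, and reads of such a pair cannot be told apart. In RPKM there was 1.71, 1.63 and 1.64 times as much Tfrc as Trf at 0, 3 and 5 days. The log2 difference of this proportion from 0 days was -0.07 at 3 days and -0.06 at 5 days, and -0.41 and -0.44 with the length trend removed.

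Steap3 (chr1:120190757-120272705, − strand), the ferrireductase of erythroid endosomes, had the largest ratio of the 8 genes at 5 days, against 0 days and against 3 days. Its level was 4.61, 6.07 and 11.9 RPKM at 0, 3 and 5 days, from 225, 289 and 582 reads. The 5-day library lay above both others, 2.55-fold above 0 days with a log2 ratio of 1.35 [1.15, 1.60], and 0.96 [0.77, 1.18] above 3 days. The log2 ratio at 3 days against 0 days was 0.39 [0.14, 0.65]. At 5 days against 0 days the ratio stayed above 2-fold with TMM factors (1.05) and with the length trend removed (1.21). Of all genes tested, 93.5% had a lower ratio at 5 days against 0 days, and 97.7% at 5 days against 3 days. Tfrc exceeded Steap3 14.5, 11.3 and 6.11 times at 0, 3 and 5 days. Macrophages also transcribe Steap3, and 15 macrophage and monocyte markers summed to 744, 870 and 1065 RPKM at 0, 3 and 5 days, with 6 past 2-fold upwards (15.5% of all genes) and 1 downwards (5.91%) between 0 and 5 days. With TMM factors 4 were past 2-fold upwards (7.24% of all genes) and 1 downwards (9.96%). Their part in the level of Steap3 was not tested.

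Slc11a2 (chr15:100387898-100425072, − strand), the divalent metal transporter DMT1 that empties the endosome, was counted at 6.14, 6.28 and 8.65 RPKM at 0, 3 and 5 days. The first 2 libraries were within counting error of each other, with a log2 ratio of 0.03 [-0.17, 0.23], and the 5-day library lay above both. The log2 ratio was 0.49 [0.31, 0.68] at 5 days against 0 days and 0.46 [0.28, 0.65] against 3 days. With TMM factors these became 0.18 and 0.23, and with the length trend removed 0.19 and 0.41. A gene on the opposite strand, Gm5475, overlaps Slc11a2, and the library kit does not mark strand.

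Slc11a1 (chr1:74375195-74386062, + strand), the phagosomal metal transporter NRAMP1 of macrophages and neutrophils, had another course. C57BL/6 mice carry a loss-of-function allele of this gene, so that its RNA does not stand for working protein. Its level was 22.2, 31.9 and 20.3 RPKM at 0, 3 and 5 days, from 794, 1112 and 727 reads. The 3-day library alone was high, with log2 ratios of 0.52 [0.39, 0.65] at 3 days against 0 days and -0.65 [-0.78, -0.51] at 5 days against 3 days. In deposited RPKM the 0-day and 5-day libraries were closer, with a log2 ratio of -0.13 [-0.27, 0.02]. With TMM factors that ratio was -0.43, outside this interval, and with the length trend removed it was -0.08. Neither the TMM factors (0.43 and -0.87) nor removal of the length trend (0.58 and -0.65) turned the steps up to and down from 3 days. Of all genes tested, 6.15% had a lower ratio than Slc11a1 at 5 days against 3 days. A ratio above 0 at 3 days with one below 0 at 5 days, both against the same 0-day library, was found for 655 of 11272 genes (5.81%). Slc11a1 exceeded Slc11a2 3.61, 5.07 and 2.35 times at 0, 3 and 5 days. From 3 to 5 days all 10 late neutrophil markers tested passed 2-fold downwards (8 without the length trend), as did 1 of the 15 macrophage and monocyte markers and 3.45% of all genes (3.4% without the length trend), and the median of the macrophage list was 0.19, or -0.03 with TMM factors. From 0 to 3 days the late neutrophil list had a median log2 ratio of -0.19, with 7 of 10 below 0, or 0.24 without the length trend, and the macrophage list had a median of 0.58. Their part in the level of Slc11a1 was not tested.

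**Figure D2:**
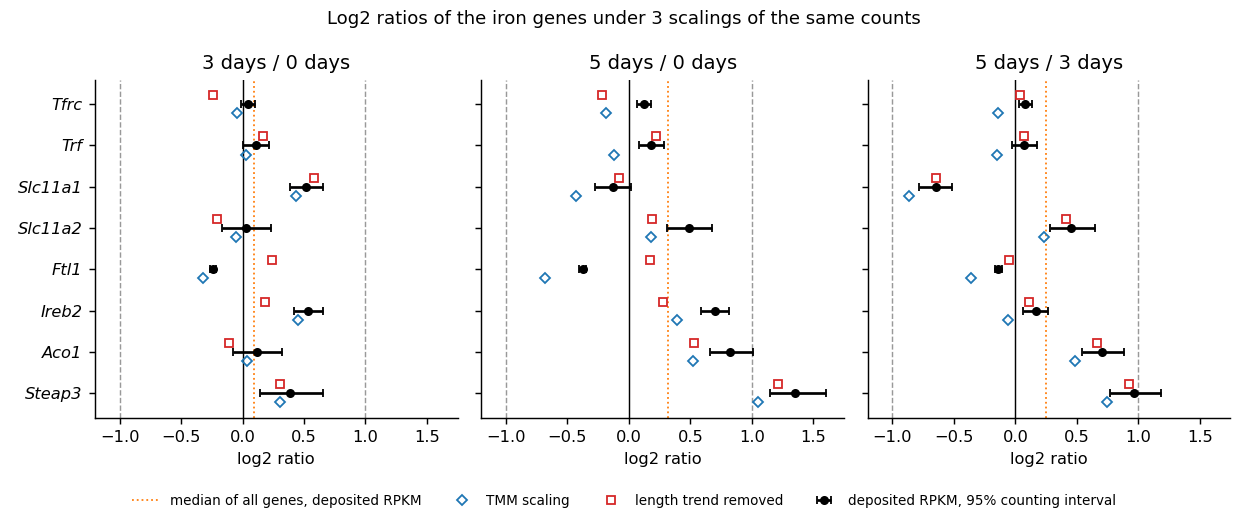
Log2 ratios of 8 iron genes for 3 days over 0 days, 5 days over 0 days and 5 days over 3 days, from deposited RPKM (black, 95% counting interval), with TMM factors (diamonds) and with the length trend removed (squares). Dashed lines mark 2-fold and the dotted line the median of all genes in deposited RPKM. Steap3 is past 2-fold at 5 days over 0 days under all 3 scalings, and Ftl1, Tfrc, Trf, Slc11a2, Aco1 and Ireb2 each change sign between scalings in at least 1 panel.

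Ftl1 (chr7:45457944-45459884, − strand), the light chain of ferritin, was by far the most abundant of the genes. It took 28335, 23421 and 21795 reads at 0, 3 and 5 days, which is 0.183%, 0.155% and 0.14% of each library. Its level was 1851, 1568 and 1425 RPKM at 0, 3 and 5 days, a step down at each time point. The log2 ratios against 0 days were -0.24 [-0.26, -0.21] (3 days) and -0.38 [-0.40, -0.35] (5 days). Ftl1 is also the shortest of the 8, with 986 bases, and the shortest length decile of all genes had medians of -0.49 and -0.43 in the same comparisons. With the length trend removed, both ratios turned to 0.24 and 0.17, whereas TMM factors gave -0.32 and -0.69. The sign of Ftl1 against 0 days therefore depends on how length is treated. Removal of the trend keeps the general shift of the genes. On that scale Ftl1, at 0.24, lay above the median of all genes, 0.10, at 3 days against 0 days. At 5 days against 0 days it was at 0.17, below the median of all genes, 0.32. The gene models Gm22133, on the same strand, and Gm10252, on the opposite strand, overlap Ftl1. Near-identical processed copies of the gene exist in the mouse genome, and how the authors' counting shared reads among them is not given in the sources used here, so its level is uncertain. Ftl1 exceeded Tfrc 27.7, 22.8 and 19.5 times at 0, 3 and 5 days in RPKM. This proportion turns too, since its log2 difference from 0 days was -0.28 at 3 days and -0.50 at 5 days in RPKM, and 0.48 and 0.39 with the length trend removed.

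Fth1 (chr19:9980598-9985098, + strand) encodes the heavy chain of ferritin, the subunit that oxidises iron. The only row with this symbol is a non-coding RefSeq transcript of 1511 bases, and the coding transcript was not analysed here. That row held 2, 5 and 0 reads at 0, 3 and 5 days. At 5 days the limit that a count of 0 allows is 3 reads, or 0.128 RPKM. The ratio at 3 days over 0 days was 2.56 with a counting interval of 0.419 to 26.9, so no difference was detectable. These reads say nothing of the ferritin heavy chain mRNA, and the proportion of both ferritin chains was not computed. In all, 23 gene names that RefSeq lists as coding have only such a non-coding row.

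Of the sensors, Aco1 (chr4:40143081-40198338, + strand) encodes IRP1, which is a cytosolic aconitase while it holds an iron-sulfur cluster. Its level was 6.13, 6.66 and 10.9 RPKM at 0, 3 and 5 days, from 411, 436 and 732 reads. As for Steap3 and Slc11a2, the 5-day library was the high one, with log2 ratios of 0.82 [0.66, 1.01] against 0 days and 0.70 [0.54, 0.89] against 3 days. The ratio at 3 days against 0 days was 0.12 [-0.08, 0.32]. At 5 days against 0 days it was 0.52 with TMM factors and 0.53 with the length trend removed.

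Ireb2 (chr9:54863789-54912530, + strand) encodes IRP2, which iron-replete cells degrade. Its level was 11.4, 16.5 and 18.5 RPKM at 0, 3 and 5 days, from 1027, 1455 and 1671 reads. Here most of the difference already stood at 3 days, with log2 ratios of 0.53 [0.42, 0.65] at 3 days and 0.70 [0.59, 0.82] at 5 days against 0 days. The step from 3 to 5 days was 0.16 [0.06, 0.27], and -0.06 with TMM factors. Ireb2 is the longest of the genes, with 5808 bases, and the longest length decile of all genes had medians of 0.55 and 0.85 against 0 days. With the length trend removed, its ratios were 0.19 at 3 days and 0.28 at 5 days. Ireb2 exceeded Aco1 1.86, 2.48 and 1.70 times at 0, 3 and 5 days.

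**Figure D3:**
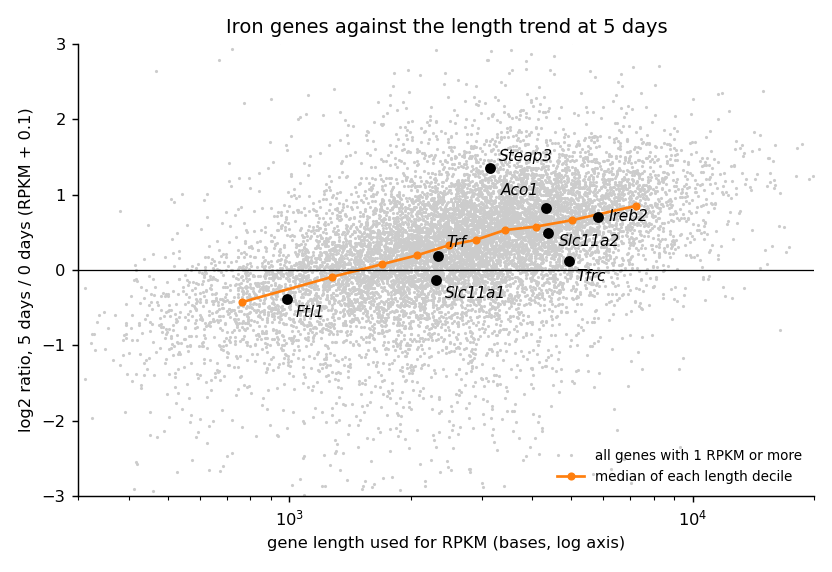
Log2 ratio at 5 days over 0 days (RPKM + 0.1) against gene length in bases (log axis) for all genes with at least 1 RPKM in either library (grey, axis ends at -3 and 3), with the median of each length decile (orange) and 8 iron genes (black). Ireb2 and Ftl1 lie near the line, Steap3 lies above it, and Tfrc and Slc11a1 lie below it.

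The other genes of iron handling were described from lists by role. Of 67 names 58 had a row, and 46 were tested at 5 days against 0 days. Of these, 5 passed 2-fold upwards (10.9%, all genes 15.5%) and 2 downwards (4.35%, all genes 5.91%), and the median log2 ratio was 0.27 (all genes 0.31). At 3 days against 0 days 1 of 45 passed 2-fold upwards (2.22%, all genes 4.08%) and none downwards (all genes 2.41%). At 5 days against 3 days 2 of 45 were higher (4.44%, all genes 1.95%) and 4 lower (8.89%, all genes 3.45%). With TMM factors 2 passed 2-fold upwards (4.35%, all genes 7.24%) and 6 downwards (13%, all genes 9.96%) at 5 days against 0 days.

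Among 9 tested genes of iron uptake and reduction, 1 passed 2-fold upwards (15.5% of all genes) and 2 downwards (5.91%) between 0 and 5 days. With TMM factors none was past 2-fold upwards (7.24% of all genes) and 2 were downwards (9.96%), and with the length trend removed again none upwards (11.1%) and 2 downwards (4.57%). The 2 lower ones were proteins that bind iron outside the cell and are stored in neutrophil granules. Lcn2, lipocalin 2, which binds siderophores, was at 10826, 8085 and 3136 RPKM at 0, 3 and 5 days. Ltf, lactoferrin, was at 4360, 4010 and 1686 RPKM. Both are also markers on the late neutrophil list, of which all 10 tested passed 2-fold downwards between 0 and 5 days (5.91% of all genes), or 8 without the length trend (4.57%). Steap4, a metalloreductase, was at 3.45, 6.33 and 7.0 RPKM, with a log2 ratio of 1.00 [0.75, 1.30] at 5 days against 0 days, just at the limit, which became 0.70 with TMM factors and 0.86 with the length trend removed.

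No gene of iron storage and chaperones passed 2-fold at 5 days against 0 days (0 of 4, all genes 15.5% higher and 5.91% lower), and the median log2 ratio was 0.70, or 0.39 with TMM factors. With the length trend removed 1 was higher (11.1% of all genes), Pcbp1. Pcbp1, a chaperone that hands iron to ferritin, was at 90.2, 108 and 166 RPKM, with a log2 ratio of 0.88 [0.80, 0.95] that became 0.57 with TMM factors and 1.11 with the length trend removed. Of the systemic genes 2 were tested and 1 was at least 2-fold higher (15.5% of all genes), or none with TMM factors (7.24%). It was Hfe, a partner of the transferrin receptor, at 4.45, 6.63 and 9.06 RPKM with a log2 ratio of 1.01 [0.70, 1.35] that became 0.70 with TMM factors. Slc40a1, the iron exporter ferroportin, was at 36.5, 51.2 and 35.0 RPKM and was highest at 3 days, as Slc11a1 was. Its log2 ratios against 0 days were 0.49 [0.40, 0.57] (3 days) and -0.06 [-0.15, 0.04] (5 days).

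Of 6 genes of iron sensing and IRP degradation none passed 2-fold at 5 days against 0 days (all genes 15.5% higher and 5.91% lower), and the median log2 ratio was -0.50. All genes had a median of 0.31. With TMM factors 2 were at least 2-fold lower, Fbxl5 and Epas1 (9.96% of all genes), and the median was -0.81, and with the length trend removed only Epas1 was lower (4.57%) and the median was -0.22. Skp1a, a subunit of the ubiquitin ligase for IRP2, was the most abundant, at 124, 87.3 and 99.7 RPKM. Fbxl5, the subunit of that ligase that senses iron and recognises IRP2, and Epas1 are named after their values were seen. Fbxl5 was at 52.9, 58.9 and 28.2 RPKM, with log2 ratios of -0.90 [-1.01, -0.81] at 5 days against 0 days and -1.06 [-1.16, -0.96] against 3 days. Epas1 was at 1.06, 0.802 and 0.566 RPKM, from 88, 65 and 47 reads, and reached the minimum of 1 RPKM only at 0 days. Its log2 ratio at 5 days against 0 days was -0.80 [-1.45, -0.38]. This became -1.07 with TMM factors and -1.18 with the length trend removed.

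Of 15 genes of mitochondrial iron and iron-sulfur clusters none passed 2-fold at 5 days against 0 days (all genes 15.5% higher and 5.91% lower), with a median log2 ratio of -0.06 (all genes 0.31). With TMM factors 2 were at least 2-fold lower, Alas2 and, named after its values were seen, Glrx5 (9.96% of all genes), and the median was -0.37, and with the length trend removed it was 0.12. Alas2, which carries one of the hairpins above, was the most abundant, at 175, 244 and 107 RPKM. It was high at 3 days and low at 5 days, with log2 ratios of 0.48 [0.43, 0.53] and -0.71 [-0.77, -0.64] against 0 days and -1.19 at 5 days against 3 days. Among 10 tested genes of heme uptake, export and breakdown 3 passed 2-fold upwards (15.5% of all genes) and none downwards (5.91%) between 0 and 5 days. With TMM factors 2 passed upwards (7.24% of all genes) and none downwards (9.96%). With the length trend removed 2 passed upwards (11.1%) and none downwards (4.57%). Cd163, the macrophage receptor for haptoglobin with hemoglobin, was at 3.5, 5.39 and 7.83 RPKM, with a log2 ratio of 1.14 [0.94, 1.39] that became 0.83 with the length trend removed. Lrp1, a receptor for hemopexin with heme and for many other ligands, was at 2.88, 7.83 and 15.4 RPKM. Its log2 ratio was 2.38 [2.30, 2.54], and 1.60 with the length trend removed, for a row of 14907 bases. The other was Slc46a1, a heme and folate transporter named after its values were seen, at 0.291, 0.597 and 1.30 RPKM, from 9, 18 and 40 reads. Its log2 ratio was 1.83 [1.09, 3.38]. It reached the minimum of 1 RPKM only at 5 days, where it was high, so it was counted only through that library. Hp, haptoglobin, was the most abundant of the list, at 640, 616 and 425 RPKM.

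**Figure D4:**
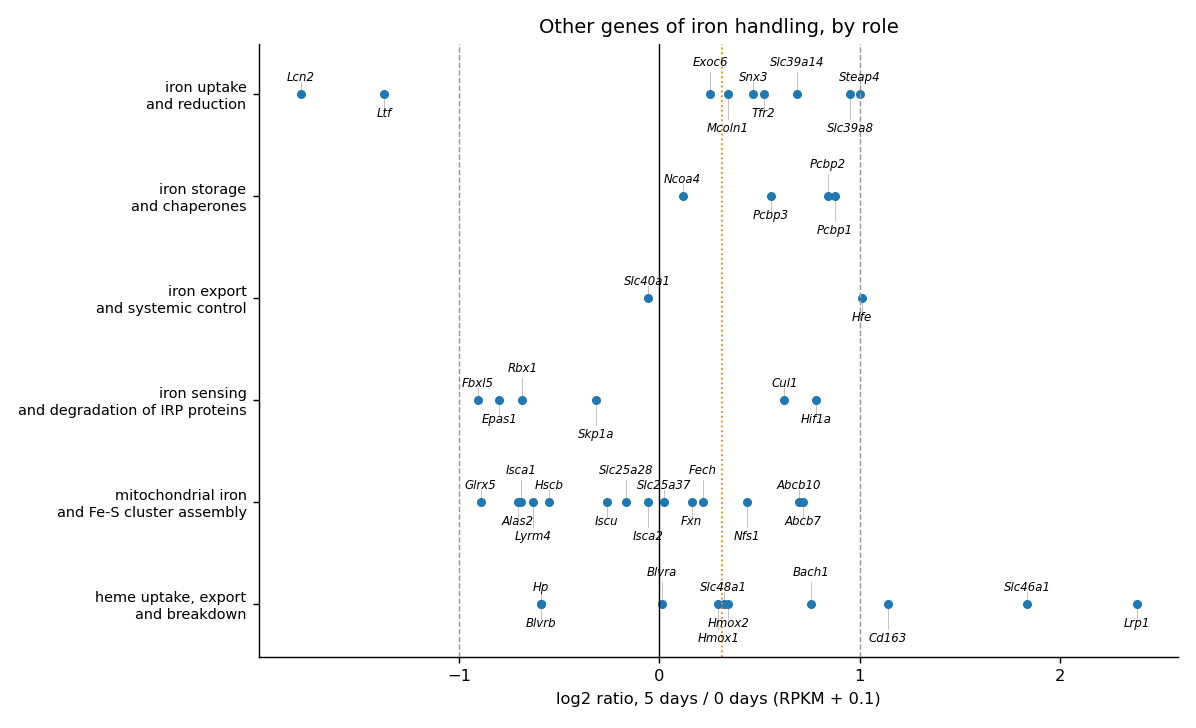
Log2 ratio at 5 days over 0 days (RPKM + 0.1) of the other genes of iron handling with at least 1 RPKM in either library, in rows by role, 1 point per gene and 1 gene not drawn. Dashed lines mark 2-fold and the dotted line the median of all genes. Lcn2 and Ltf lie furthest to the left at -1.79 and -1.37, and Lrp1 furthest to the right at 2.38.

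Genes with the most similar course were sought for the receptor and for Slc11a1 among 6168 genes averaging 10 RPKM or more, by distance in the plane of the log2 ratios at 3 and 5 days against 0 days, which rests on 3 libraries. Nearest to Tfrc were Bnip2, Flt3l and Wsb2, at 0.011 to 0.0212, and 149 genes lay within 0.1. Nearest to Slc11a1 were Pde1b, Nadk and Tmem71, at 0.019 to 0.0318, with 14 genes within 0.1.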

How the data were processed

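The authors deposited, for each pair of the 3 libraries, a table with the counts of reads per gene and the RPKM computed from these counts, from poly(A) RNA prepared with the TruSeq kit, sequenced on an Illumina HiSeq and quantified with Cufflinks 1.0.3. The deposited tables also hold the authors' ratios, P values and false discovery rates, which were not used. The submitters' processing notes name the mouse build mm8, and the aligner is not given in the sources used here. Positions and hairpins come from GENCODE M21 (GRCm38), matched by symbol. RPKM was counts over length and total, within 0.1%, except for 18 rows at 0 days and 14 at 3 days. Genes without reads, which the authors list at 0.01 RPKM, were set to 0. Of repeated names the row with the largest average RPKM was taken.

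Genes with at least 1 RPKM in either library were tested against a 2-fold threshold, a count and not a statistical test. The members and lists were chosen with earlier results of these data known. Named genes outside the 9 are those past 2-fold at 5 days against 0 days with at least 5 RPKM, and the most abundant of each list, with exceptions marked as named after their values were seen. Alternatives were pseudocounts of 1 and 0.01, TMM (edgeR 4.0.16), median-of-ratios (DESeq2 1.42.0), totals without the 100 most abundant genes, removal of the length trend (lowess, span 0.3, statsmodels 0.14.6), summed rows, 1.5-fold, and 5 RPKM or no minimum. The 2-fold rule, the counting interval of the ratio and the removal of the length trend were tried on simulated data in Python 3.11.15. The TMM and median-of-ratios factors, computed in R 4.3.3, were not. For 1 gene of the lists, values and sequence are not reported here, and list counts include it.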

Additional observations from a re-analysis of the deposited data

Results flagged for a closer look

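Slc11a1 was above its 0-day level at 3 days, with a log2 ratio of 0.52, and below it at 5 days, with -0.13, so that the comparisons with 0 days have opposite signs. The difference was not tested, since each time point is 1 library and both ratios share the 0-day library. The interval at 5 days against 0 days, -0.27 to 0.02, includes 0. It holds for deposited RPKM, and other scalings moved this ratio outside it. The ratio was -0.43 with TMM factors, -0.42 with median-of-ratios factors and -0.33 with totals without the 100 most abundant genes. With the length trend removed it was -0.08. Ratios of opposite sign in this order were found for 5.81% of 11272 genes.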

How the results depend on the processing

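Of 24 log2 ratios (8 genes, 3 comparisons), both pseudocounts and summed rows changed the sign of none and took none outside its counting interval. The sign changed for 7 with TMM factors, 7 with median-of-ratios factors, 6 with totals without the 100 most abundant genes and 6 without the length trend. Of these, 4, 4, 3 and 3 had a counting interval that excluded 0, and they are given here. Another 14, 14, 10 and 8 ratios moved outside their interval without such a turn. With the first 3 of these scalings in that order, Tfrc turned to -0.19, -0.18 and -0.078 at 5 days against 0 days and to -0.14, -0.14 and -0.024 against 3 days. Trf turned to -0.13, -0.12 and -0.018 at 5 days against 0 days. TMM and median-of-ratios turned Ireb2 at 5 days against 3 days to -0.059 and -0.053. Without the length trend, Tfrc was -0.22 at 5 days, and Ftl1 0.24 at 3 days and 0.17 at 5 days, against 0 days. The median of the 8 genes became 0.028 and 0.039 at 5 days against 0 days, and -0.10 and -0.095 against 3 days, with TMM and median-of-ratios. At 1.5-fold, 3 genes were higher at 5 days than at 0 days (34.5% of all genes), and 2 were higher (17.3%) and 1 lower (6.86%) than at 3 days. The cause was not tested.

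No paired analysis was possible because each time point is 1 library, and for the same reason no replicate was left out. The ratio of Fth1 to Ftl1 was not run, since the row for Fth1 holds no coding transcript. Counting error at 225 to 28335 reads at 0 days is the only error these libraries show. The spread between mice is unknown.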
